A study of Mus musculus with 8 samples.

Results

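The enzymes and carriers of glycolysis, the pentose phosphate pathway and the fates of pyruvate were followed as 35 genes, found by symbol among the 24421 gene rows of the raw count table and ordered by pathway step. The RNA came from KPCY cells, a pancreatic cancer cell type from mice. Stable cells, called the knockdown line here, carried a lentiviral vector that inhibits miR-27a-3p (n = 4 libraries), and the scrambled line carried a vector with a scrambled sequence (n = 4 libraries). Both lines had been selected for 7 days in puromycin at 2 µg/mL, grew in DMEM with L-glutamine, 10% fetal bovine serum and glucose at 4.5 g/L but without pyruvate, and gave RNA 24 hours after seeding. The series as a whole concerns fibroadipogenic progenitors in pancreatic cancer cachexia. The labels call the 4 libraries of a group biological replicates, while the protocol describes puromycin-resistant transduced cells and no separate transductions. The tests then use the scatter among libraries of what may be 1 line per group, and miR-27a inhibition and any other difference between the lines cannot be told apart.

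Glycolysis takes glucose to pyruvate in the cytosol, giving ATP and NADH, and lactate dehydrogenase returns NADH to NAD+ by turning pyruvate into lactate, which leaves through monocarboxylate carriers. The pentose phosphate pathway branches off at glucose 6-phosphate. Its oxidative arm makes NADPH, and its non-oxidative arm makes ribose 5-phosphate and exchanges sugars with glycolysis. Many glycolytic genes are also known targets of the hypoxia-inducible factor HIF-1.

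The mature guide strand that the vector inhibits is shown first, because its seed guides which transcripts it pairs with. It lies on the plus strand at chr8:84208727-84208747 of GRCm38.p6 (sequence from RefSeq), and the capitals mark the seed, bases 2 to 8.
mmu-miR-27a-3p: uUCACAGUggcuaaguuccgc
A match to the complement of that seed, ACTGTGA, occurred in the longest annotated 3' untranslated region of 3 of the 35 members (8.57%), against 1956 of 11028 tested genes that have such a region (17.7%). The longer match ACTGTGAA, which contains the first, occurred in 2 of 35 members (5.71%) and in 705 of 11028 tested genes (6.39%). The sites are printed with 11 bases on either side, with the seed match in capitals.
Pfkfb2, first site: tagctgtcactACTGTGAtcagctggtct
Pfkfb2, second site: gatgcatacacACTGTGActatgaatgca
Pdha1: aggcttggctcACTGTGAagactcctgca
Gys1: gtgctcagcccACTGTGAaaccactgggt
Pfkfb2 encodes an enzyme that sets the level of fructose 2,6-bisphosphate, Pdha1 a subunit of pyruvate dehydrogenase and Gys1 glycogen synthase. Their levels are given with their steps below, and none of these 3 members was higher in the knockdown line. Other classes of seed match are not covered here.

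Promoter windows of 300 bases, 250 before and 50 after the first listed RefSeq start of each gene, were searched on both strands. The search was for ACGTG, a core that HIF-1 can bind. The first listed start need not be the most upstream, and the Ldha window lies inside that gene as annotated by GENCODE. The same holds for the windows of Pfkl, Pfkfb2, Aldoa, Gapdh, Slc16a3, Mpc1, Mpc2, G6pdx and Tkt. ACGTG was present in 13 of 34 member windows (38.2%) and in 2397 of 9071 windows of tested genes (26.4%). The broader core, ACGTG or GCGTG, was present in 27 member windows (79.4%) and in 5884 of the tested windows (64.9%). The E-box CACGTG, which holds ACGTG on both strands and so overlaps it, was present in 4 member windows (11.8%) and in 952 of the tested windows. Of the windows of members that fell in the knockdown line, 10 of 23 held ACGTG, against 3 of 8 among members that passed no test and 0 of 2 among members that rose. The windows of 4 members are printed 5' to 3' on the strand of the gene with ACGTG, or CACGT on this strand, in capitals. Ldha holds the motif 5 times counting both strands, Slc2a1 and Pgam1 hold it once and Tpi1 does not hold it. They are shown because Ldha, Slc2a1 and Tpi1 fell while Pgam1 did not. The coordinates are chr7:46845554-46845853, plus strand, for Ldha; chr4:119108495-119108794, plus strand, for Slc2a1; chr6:124814109-124814408, minus strand, for Tpi1; and chr19:41911621-41911920, plus strand, for Pgam1, all in GRCm38.p6.
Ldha: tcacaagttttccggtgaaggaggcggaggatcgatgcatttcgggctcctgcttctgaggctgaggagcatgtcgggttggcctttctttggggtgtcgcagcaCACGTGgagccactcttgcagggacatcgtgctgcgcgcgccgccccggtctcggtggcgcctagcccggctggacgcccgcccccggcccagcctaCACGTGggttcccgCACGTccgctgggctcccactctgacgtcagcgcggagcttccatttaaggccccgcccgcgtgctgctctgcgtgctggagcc
Slc2a1: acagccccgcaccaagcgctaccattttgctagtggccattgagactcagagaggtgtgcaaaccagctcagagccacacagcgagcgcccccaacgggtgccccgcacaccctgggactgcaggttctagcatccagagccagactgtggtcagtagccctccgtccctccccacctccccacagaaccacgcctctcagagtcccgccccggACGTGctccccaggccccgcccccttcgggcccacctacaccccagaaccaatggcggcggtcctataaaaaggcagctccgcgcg
Tpi1: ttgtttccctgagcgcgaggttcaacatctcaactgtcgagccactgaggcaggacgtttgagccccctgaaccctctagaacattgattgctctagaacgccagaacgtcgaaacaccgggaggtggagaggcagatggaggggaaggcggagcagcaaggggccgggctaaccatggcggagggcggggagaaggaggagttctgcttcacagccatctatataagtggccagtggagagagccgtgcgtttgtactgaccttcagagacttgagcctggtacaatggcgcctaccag
Pgam1: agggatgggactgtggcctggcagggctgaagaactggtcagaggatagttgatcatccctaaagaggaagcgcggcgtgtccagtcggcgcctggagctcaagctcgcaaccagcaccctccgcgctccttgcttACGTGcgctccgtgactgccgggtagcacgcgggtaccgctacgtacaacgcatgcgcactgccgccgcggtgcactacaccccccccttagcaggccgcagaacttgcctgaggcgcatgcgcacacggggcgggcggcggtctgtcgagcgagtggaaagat

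The 8 libraries held 19165513 to 23542275 counts assigned to genes. Levels are CPM, the library-scaled unit that brings every library to a common total, corrected by TMM factors, and a gene was called at an adjusted p below 0.05 in edgeR's quasi-likelihood test over the 11797 genes that passed a filter on low counts. The separation of the lines was wide, since 47.9% of all tested genes were called. Scrambled replicate 2 stood apart from its group: the chi-square per gene against the other scrambled libraries was 5.17 to 5.35, while the other pairs within a line gave 1.73 to 2.35. With that library left out, 6004 rather than 5645 genes passed the test, with 22 members lower, 2 higher and a median log2 fold change of -0.20 over the tested members. Markers of ductal and epithelial cells were all present, 8 of 8 at or above 1 CPM, and their summed level was 11521 to 11849 CPM in knockdown libraries and 10826 to 11791 CPM in scrambled libraries. Summed fibroblast markers stayed at or below 1.41 CPM in every library, with Col1a2, Pdgfrb, Dcn and Lum at 0. The summed leukocyte markers reached 4.40 CPM at most, the endothelial ones 1.03 CPM and the acinar and endocrine ones 3.98 CPM. The assay does not capture mature miRNA, and the Mir27a row held 1 count in knockdown replicate 2 and none elsewhere, so the inhibition itself could not be checked.

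Most of the pathway was slightly lower in the knockdown line. Of 33 tested members, 23 fell (69.7%), against 24.1% of all tested genes, and 2 rose (6.06%), against 23.8% of all tested genes. The median log2 fold change of the tested members was -0.20, a level 0.873 times that of the scrambled line, beside a median of 0.0017 over all tested genes. The falls were small: 14 were under 1.2-fold, 7 were between 1.2 and 1.5-fold, and Rpia and Aldoc exceeded 1.5-fold. Abundant genes were called lower more often in general, with 37.9% lower and 25.3% higher among the genes of at least 100 mean CPM. Of the 17 tested members at that level 16 fell and 1, Hk1, rose. Pgam1 lay just under that level, at 100.9 CPM in the knockdown line and 98.0 CPM in the scrambled line, and was not called.

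All 4 knockdown libraries stood apart from all 4 scrambled libraries on the members' summed share of counts. The most abundant members, such as Pkm and Gapdh, weigh most in that sum. The members together took 1.17, 1.16, 1.17 and 1.15% of the counts in knockdown libraries, against 1.32, 1.32, 1.33 and 1.35% in scrambled libraries. For 21 members every knockdown library lay below every scrambled library, and for 2 members every knockdown library lay above, where the same held for 21.1% and 21% of all tested genes. Reads of several members could be split with near-identical copies, and the share of windows in copies is given for those with the most. Without the 7 members in which at least 20% of the 59-base windows also occur in transcripts elsewhere, 20 of 27 tested members fell, 2 rose and the median log2 fold change was still -0.20.

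**Figure D1:**
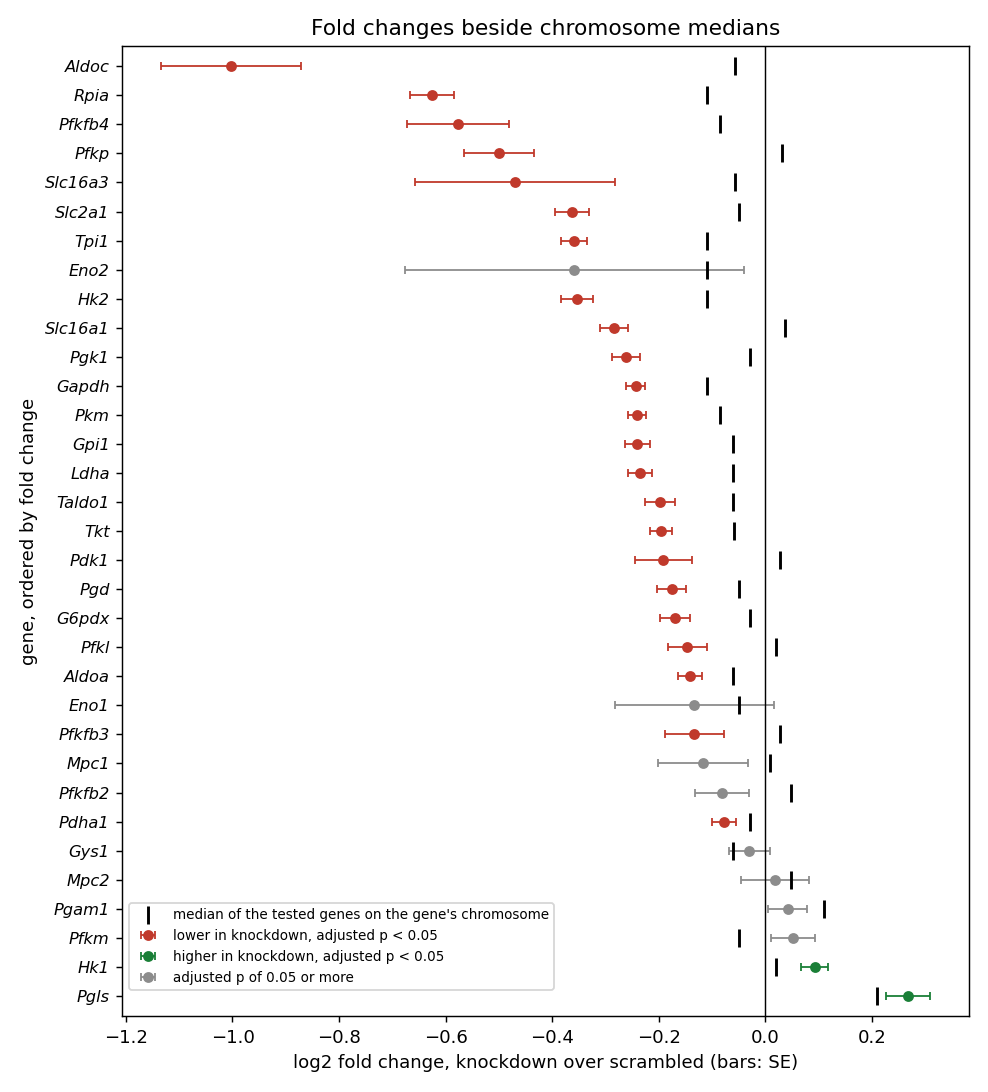
Log2 fold change of each tested member, knockdown over scrambled, ordered by its size, with bars of 1 standard error and a black tick for the median of the tested genes on the same chromosome. All 23 points called lower lie left of their tick, with Aldoc at -1.003 at one end and Pgls at 0.27 at the other.

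Glucose enters through Slc2a1, which encodes the carrier GLUT1. Slc2a1 measured 117, 117, 115 and 109 CPM in knockdown libraries, against 142, 146, 148 and 154 CPM in scrambled libraries. The groups did not overlap, and the level in the knockdown line was 1.29-fold lower (log2 fold change -0.36, SE 0.0321, adjusted p = 3.91e-09). Slc2a3, the carrier GLUT3, had 3, 1, 0 and 0 counts in knockdown libraries and 8, 6, 1 and 9 counts in scrambled libraries and did not pass the filter. Tested with no filter on low counts it was lower (log2 fold change -2.39, adjusted p = 0.01005), on these few counts.

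Of the hexokinases, which trap glucose as glucose 6-phosphate, one fell and the other rose. Hk2 measured 228, 232, 218 and 226 CPM in knockdown libraries, against 287, 269.7, 298 and 299 CPM in scrambled libraries. All knockdown values were below all scrambled values, by 1.28-fold on average (log2 fold change -0.35, SE 0.0306, adjusted p = 2.77e-09). Hk1 measured 298, 299, 307 and 304 CPM in knockdown libraries, against 285, 270.0, 292 and 285 CPM in scrambled libraries. That difference, a log2 fold change of 0.09 (SE 0.0259, adjusted p = 0.00531), was small but also without overlap. Hk1 shares 157 exon bases with the antisense gene Hk1os.

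The make-up of the step differed between the lines. Counted per length of merged exons, Hk1 supplied 60.7 ± 0.896% of the transcripts of this pair in knockdown libraries and 53.2 ± 0.530% in scrambled libraries (SD, n = 4 each). Hkdc1, a less studied hexokinase-domain gene that is the direct neighbour of Hk1 on the same strand (chr10:62383137-62422491, with Hk1 at chr10:62268855-62379908, GRCm38), measured 19.8 ± 1.00 CPM in the knockdown line and 38.7 ± 2.28 CPM in the scrambled line (SD, n = 4 each), 1.95-fold lower (adjusted p = 4.23e-12). The neighbours thus moved in opposite directions.

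Gpi1 makes fructose 6-phosphate, and phosphofructokinase, built from the Pfkl, Pfkm and Pfkp subunits, commits it to glycolysis. Gpi1 averaged 439 ± 8.10 CPM in the knockdown line and 519 ± 10.4 CPM in the scrambled line (SD, n = 4 each) and fell 1.18-fold (adjusted p = 1.33e-08). Of its windows, 14.8% occur in copies elsewhere. The platelet-type subunit Pfkp measured 20.52, 17.96, 20.62 and 20.01 CPM in knockdown libraries, against 26.2, 25.7, 29.7 and 30.2 CPM in scrambled libraries. It was 1.41-fold lower (log2 fold change -0.50, SE 0.0656, adjusted p = 1.52e-06). It shares 748 exon bases with Pitrm1 on the opposite strand, and whether the counting used strand is not given in the sources used here. The liver-type subunit Pfkl fell 1.11-fold (140.7 ± 3.30 CPM in the knockdown line, 155.6 ± 9.91 CPM in the scrambled line, adjusted p = 0.00198). For the muscle-type Pfkm no difference was detected (71.3 ± 2.88 CPM in the knockdown line, 68.7 ± 3.47 CPM in the scrambled line, adjusted p = 0.311). Per exon length, Pfkl stayed the main subunit, with 57.1 ± 0.450% in knockdown and 58.6 ± 1.07% in scrambled libraries. Pfkm held 36.0 ± 0.455% in the knockdown line and 32.2 ± 1.363% in the scrambled line, and Pfkp held 6.96 ± 0.292% in the knockdown line and 9.13 ± 0.340% in the scrambled line (SD, n = 4 each).

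The Pfkfb enzymes make and break fructose 2,6-bisphosphate, the activator of phosphofructokinase. Pfkfb4 measured 6.70, 6.11, 7.40 and 7.11 CPM in knockdown libraries, against 10.4, 8.81, 10.7 and 10.8 CPM in scrambled libraries. Its fall was 1.49-fold with no overlap of the groups (SE of the log2 fold change 0.0958, adjusted p = 3.24e-05). Pfkfb3, the isozyme with high kinase activity, was the most abundant of these 3 per length; it averaged 34.7 ± 0.898 CPM in the knockdown line and 38.2 ± 3.23 CPM in the scrambled line, groups that overlapped, and its adjusted p of 0.0487 was lost under most other settings, with a range of 0.0150 to 0.200. Without knockdown replicate 1, 2, 3 or 4 it was 0.114, 0.0755, 0.109 or 0.0558, and without scrambled replicate 2 or 4 it was 0.200 or 0.0908. Pfkfb2, which carries 2 of the seed matches above, measured 26.2 ± 0.251 CPM in the knockdown line and 27.8 ± 0.827 CPM in the scrambled line and was not called (log2 fold change -0.08, adjusted p = 0.188). Pfkfb2 shares 1241 exon bases with Gm29427 on the same strand. The part of this overlap in its level, and in its rank below Pfkfb3 per length, was not tested. Pfkfb4 held 14.5 ± 1.09% of the summed transcripts of these 3 genes per length in the knockdown line and 19.1 ± 2.21% in the scrambled line (SD, n = 4 each). Pfkfb1, which is not a member and stands outside these sums, measured 5.77 to 6.68 CPM in knockdown libraries and 5.66 to 6.89 CPM in scrambled libraries, and Hkdc1 stands outside the sum of Hk1 and Hk2.

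**Figure D2:**
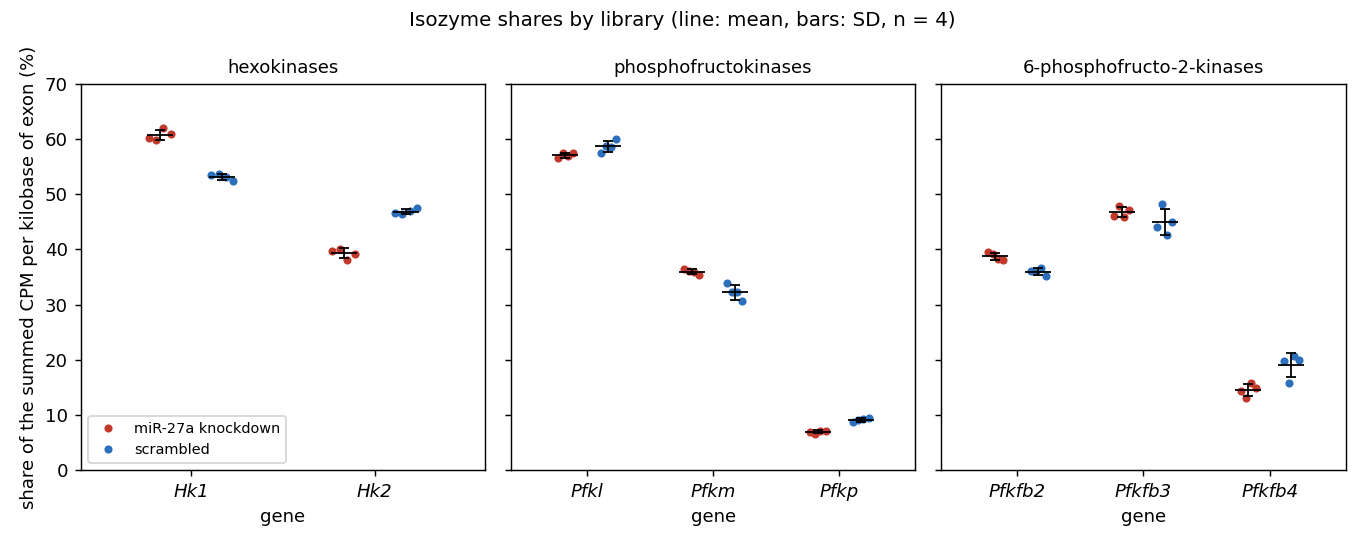
Share held by each gene of the listed members of a step (Hk1 and Hk2; Pfkl, Pfkm and Pfkp; Pfkfb2, Pfkfb3 and Pfkfb4), in percent of their summed CPM per kb of merged exons, one point per library (knockdown left of scrambled) with mean and SD. The Hk1 points lie higher in the knockdown line (mean 60.7%) than in the scrambled line (mean 53.2%).

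Aldolase cleaves fructose 1,6-bisphosphate, and triosephosphate isomerase, Tpi1, interconverts its products. All 3 members of these steps fell. Aldoc, the brain-type aldolase, measured 6.86, 7.66, 8.32 and 5.97 CPM in knockdown libraries, against 11.5, 11.9, 15.5 and 18.5 CPM in scrambled libraries. This was the steepest fall among the tested members, 2.00-fold (log2 fold change -1.003, SE 0.131, adjusted p = 1.43e-06), at a level with a wide spread in the scrambled line. Aldoa, the muscle-type form, supplied nearly all aldolase transcripts. It fell 1.10-fold (884.9 ± 11.8 CPM in the knockdown line, 976 ± 28.9 CPM in the scrambled line, SD, n = 4 each, adjusted p = 1.8e-05). Aldoc held 0.496 ± 0.0702% of aldolase transcripts per length in the knockdown line and 0.890 ± 0.184% in the scrambled line. Tpi1 measured 752, 739.6, 774 and 726 CPM in knockdown libraries, against 924, 973, 952 and 991 CPM in scrambled libraries. It was 1.28-fold lower (log2 fold change -0.36, SE 0.0245, adjusted p = 4.87e-11), and 4.97% of its windows occur in annotated copies.

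In lower glycolysis Gapdh, Pgk1 and Pkm fell by close to the same ratio, while Pgam1, Eno1 and Eno2 passed no test. Gapdh, which couples oxidation of glyceraldehyde 3-phosphate to NADH, measured 2026, 2016, 2063 and 1988 CPM in knockdown libraries, against 2398, 2408, 2393 and 2381 CPM in scrambled libraries. It was 1.18-fold lower (log2 fold change -0.24, SE 0.0182, adjusted p = 2.44e-10). Pseudogenes make this the least unique member: 81.7% of its windows occur in copies, 163 pseudogenes among them. Pgk1, the first ATP-making enzyme, averaged 200.2 ± 4.77 CPM in the knockdown line and 240.1 ± 4.50 CPM in the scrambled line (SD, n = 4 each), 1.199-fold lower (adjusted p = 2.37e-08), with 67.8% of its windows in copies. Pkm, pyruvate kinase, had the highest CPM of all members, with 2913, 2893, 2897 and 2842 CPM in knockdown libraries against 3429, 3354, 3421 and 3436 CPM in scrambled libraries. Its fall was 1.18-fold (SE of the log2 fold change 0.0176, adjusted p = 1.58e-10), and 24.5% of its windows occur in copies. Counts per gene do not separate its M1 and M2 isoforms.

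Pgam1, phosphoglycerate mutase, averaged 100.9 ± 4.16 CPM in the knockdown line and 98.0 ± 4.62 CPM in the scrambled line (SD, n = 4 each, adjusted p = 0.374), with 41.2% of its windows in copies. Eno1, the usual enolase, was counted at only 2.82 ± 0.262 CPM in the knockdown line and 3.09 ± 0.357 CPM in the scrambled line (adjusted p = 0.485). Of its windows 69.8% occur elsewhere and 68.1% occur in Eno1b, whose own row measured 1.18 to 1.33 CPM in knockdown libraries and 1.46 to 1.65 CPM in scrambled libraries. Its level stood far under those of Pgk1 and Pkm in both lines, and the part of shared sequence in that was not tested. Eno2, the neuronal enolase, was near the limit of detection at 0.635 ± 0.274 CPM in the knockdown line and 0.828 ± 0.203 CPM in the scrambled line (adjusted p = 0.373). Eno3, an enolase gene that is not a member, had a higher level than either. Eno3 measured 51.2 to 52.1 CPM in knockdown libraries and 52.9 to 54.1 CPM in scrambled libraries.

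**Figure D3:**
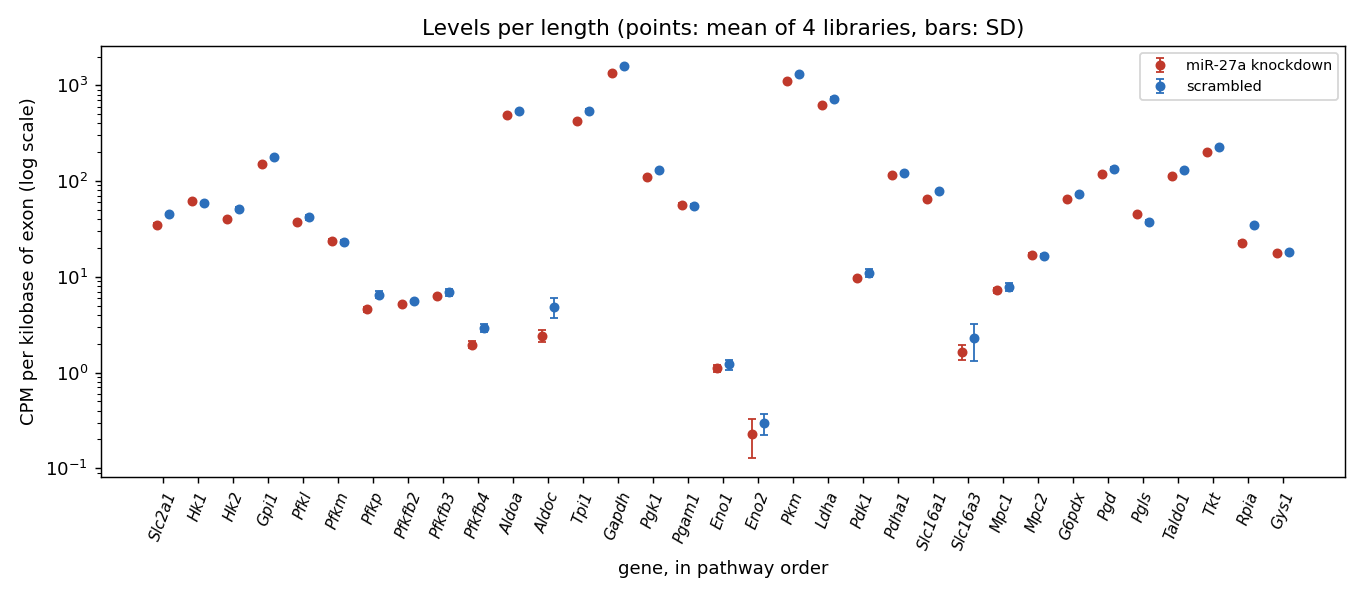
Mean level of each tested member in CPM per kb of merged exons on a log axis, knockdown and scrambled, with bars for the SD of 4 libraries. Gapdh (1353 in the knockdown line, 1602 in the scrambled line) and Pkm (1110 in the knockdown line, 1312 in the scrambled line) stand at the top, and Eno1 lies near 1.

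Levels per exon length allow genes to be compared only roughly, since reads in shared sequence may not be counted to their gene. On that scale Gapdh led with 1353 CPM per kb in the knockdown line and 1602 in the scrambled line. Pkm, Ldha, Aldoa and Tpi1 followed in that order in the knockdown line. The order was the same in the scrambled line, except that Tpi1 lay just above Aldoa (544 against 535 CPM per kb).

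Of the members for lactate formation and export, 3 were tested and all 3 were called lower, 1 of them on the strength of a single library. Ldha, the main lactate dehydrogenase subunit, measured 1171, 1157, 1179 and 1172 CPM in knockdown libraries, against 1319, 1363, 1407 and 1417 CPM in scrambled libraries. The groups did not overlap, and the level was 1.18-fold lower (log2 fold change -0.23, SE 0.0222, adjusted p = 1.2e-08), with 10.9% of its windows in copies. Ldhb had 0 counts in all 8 libraries, which allows up to 3 counts, or 0.129 to 0.155 CPM per library; 22.2% of its windows occur in a processed pseudogene, so no Ldhb transcript was detectable at this depth. Slc16a1, which encodes the lactate carrier MCT1, measured 286, 281, 277 and 301 CPM in knockdown libraries, against 342, 351, 354 and 347 CPM in scrambled libraries. It was 1.22-fold lower (log2 fold change -0.28, SE 0.0263, adjusted p = 8.66e-09). Slc16a3, the carrier MCT4, measured 8.70, 6.63, 8.17 and 5.92 CPM in knockdown libraries, against 7.522, 7.501, 9.085 and 16.5 CPM in scrambled libraries. The mean level in the scrambled line rests on its replicate 4. The log2 fold change over all libraries was -0.47 (SE 0.188, adjusted p = 0.0437), and without that library the log2 fold change was -0.14 and the adjusted p 0.394. The call was also lost without knockdown replicate 2, 3 or 4, at an adjusted p of 0.115, 0.0536 or 0.156.

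**Figure D4:**
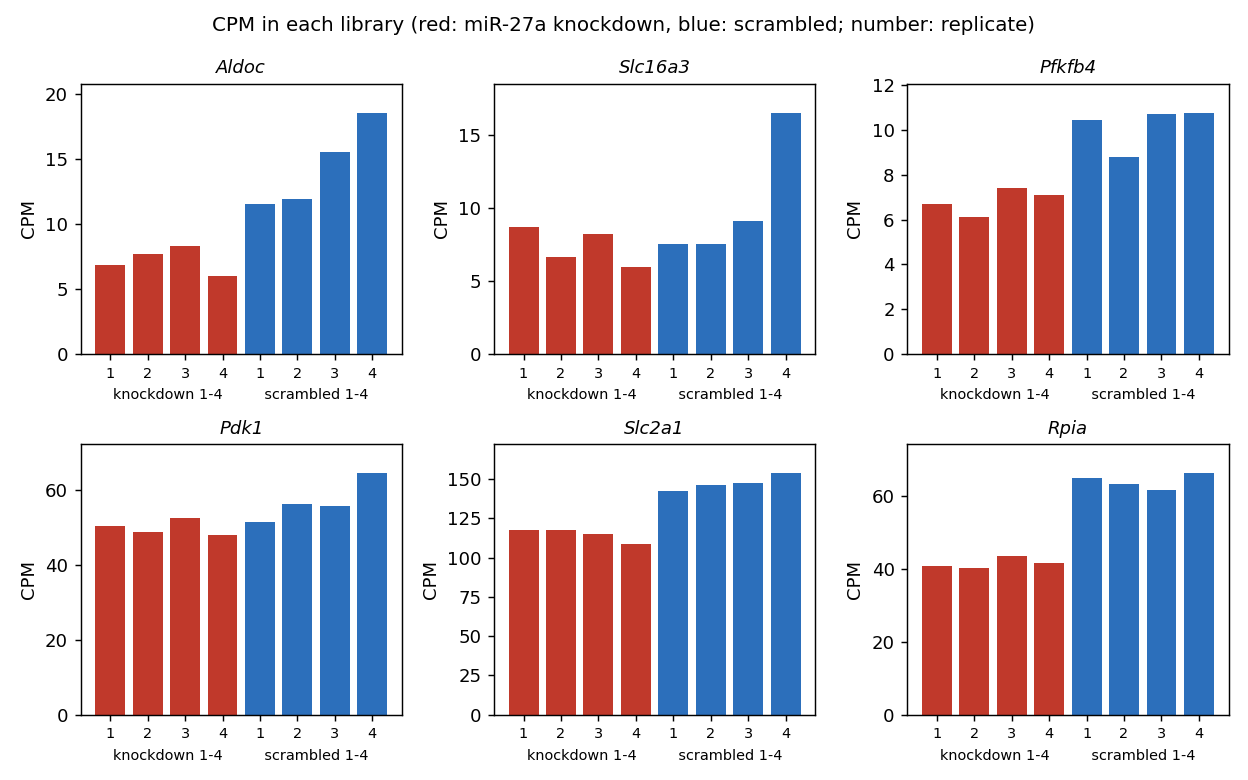
TMM-scaled CPM of 6 members, one bar per library, with knockdown replicates left of scrambled replicates. Aldoc, Pfkfb4, Slc2a1 and Rpia have no overlap between the lines, whereas 1 scrambled library (16.5 CPM) lifts the scrambled mean of Slc16a3.

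The members for the entry of pyruvate into the mitochondrion showed small or no detected differences. Pdha1, the E1 alpha subunit of pyruvate dehydrogenase and a gene with a seed match, averaged 330.8 ± 4.79 CPM in the knockdown line and 349.0 ± 1.88 CPM in the scrambled line, a fall of 1.05-fold (adjusted p = 0.00652) that was lost when libraries were scaled by their totals alone (adjusted p = 0.0612). It shares 603 exon bases with Map3k15 on the opposite strand. Pdk1, a kinase that inactivates the same complex, measured 50.4, 48.7, 52.5 and 48.0 CPM in knockdown libraries, against 51.5, 56.3, 55.7 and 64.5 CPM in scrambled libraries, 1.14-fold lower (adjusted p = 0.00514) with overlapping groups. For the mitochondrial pyruvate carrier subunits no difference was detected: Mpc1 averaged 10.6 ± 0.549 CPM in the knockdown line and 11.5 ± 1.15 CPM in the scrambled line (adjusted p = 0.269), with 22.5% of its windows in copies, and Mpc2 17.3 ± 0.660 CPM in the knockdown line and 17.1 ± 0.675 CPM in the scrambled line (adjusted p = 0.837).

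In the oxidative pentose phosphate arm the NADPH-making dehydrogenases fell while the lactonase between them rose. G6pdx measured 169, 170.5, 175 and 171 CPM in knockdown libraries, against 202, 184, 194 and 189.6 CPM in scrambled libraries, 1.125-fold lower (adjusted p = 4.44e-05) with no overlap. Pgd, the next dehydrogenase, averaged 263 ± 5.21 CPM in the knockdown line and 298 ± 10.8 CPM in the scrambled line (SD, n = 4 each), 1.13-fold lower (adjusted p = 1.33e-05). Pgls, 6-phosphogluconolactonase, measured 52.8, 53.9, 52.9 and 52.1 CPM in knockdown libraries, against 41.8, 45.8, 44.5 and 43.8 CPM in scrambled libraries. Its log2 fold change was 0.27 (SE 0.0412, adjusted p = 1.23e-05). Pgls lies on chromosome 8, whose other tested genes had a median log2 fold change of 0.21, and it exceeded that median by 0.06.

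All 3 members of the non-oxidative arm fell. Rpe, a gene of this arm that is not a member, overlapped between the lines. It measured 52.0 to 55.5 CPM in knockdown libraries and 51.4 to 59.4 CPM in scrambled libraries. Rpia, which makes ribose 5-phosphate, measured 40.7, 40.1, 43.4 and 41.6 CPM in knockdown libraries, against 64.7, 63.2, 61.7 and 66.2 CPM in scrambled libraries. The groups were far apart, 1.54-fold (log2 fold change -0.63, SE 0.0411, adjusted p = 2.7e-11). Transketolase, Tkt, averaged 644 ± 11.95 CPM in the knockdown line and 737 ± 4.08 CPM in the scrambled line, 1.15-fold lower (adjusted p = 7.37e-08). Transaldolase, Taldo1, averaged 154 ± 4.45 CPM in the knockdown line and 177 ± 3.30 CPM in the scrambled line (SD, n = 4 each), also 1.15-fold lower (adjusted p = 4.07e-06). Copies hold 6.44% of the Taldo1 windows, 5.36% of those of G6pdx and 7.65% of those of Aldoa. Gys1, which stores glucose as glycogen and carries a seed match, averaged 65.1 ± 1.91 CPM in the knockdown line and 66.5 ± 2.54 CPM in the scrambled line (adjusted p = 0.536). It shares 310 exon bases with Ruvbl2.

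**Figure D5:**
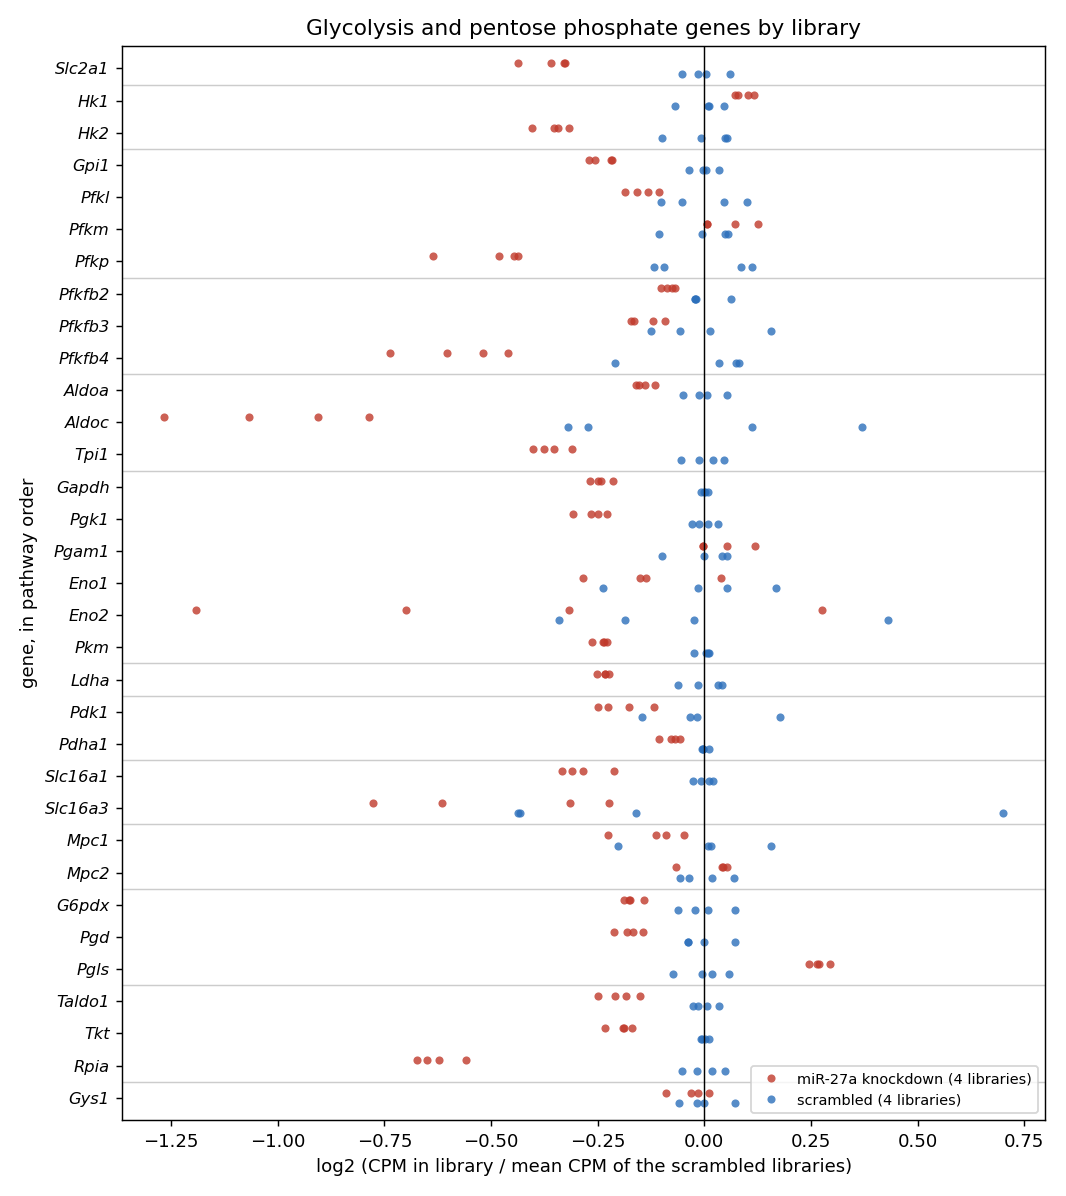
Log2 CPM of each tested member relative to its mean in the scrambled libraries, one point per library, with the knockdown points drawn above the scrambled points of the same gene. The median over the tested members was -0.18, -0.22, -0.17 and -0.21 in knockdown libraries and between -0.02 and 0.03 in scrambled libraries.

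Levels in the knockdown line also differed by chromosome: the chromosome medians beside the members ran from -0.11 on chromosome 6 to 0.21 on chromosome 8 on the log2 scale. Of the 33 tested members 29 lay below the median of their own chromosome, as did all 23 that fell, and the median distance was -0.16. Chromosome 6 carries Hk2, Tpi1, Gapdh, Eno2 and Rpia among the tested members. The part that copy number or other regional differences between the lines play in these values was not tested.

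A further 10 lists of 149 genes covered related sugar metabolism, the tricarboxylic acid cycle and the control of glycolysis at transcription. Of the 119 tested genes of these lists 47 fell (39.5%) and 24 rose (20.2%), against 24.1% and 23.8% of all tested genes. The tricarboxylic acid cycle list alone gave 11 of the 47, from 18 tested genes, with 0 higher. Of the other genes of glucose uptake and glycolysis 2 of 13 fell and 3 rose, with a median log2 fold change of -0.0015; among them Bpgm, which makes 2,3-bisphosphoglycerate, rose (log2 fold change 0.21, adjusted p = 0.000101). Of the other pentose phosphate and ribose genes 4 of 11 fell and 1 rose: Prps1, which makes phosphoribosyl pyrophosphate from ribose 5-phosphate, fell (log2 fold change -0.32, adjusted p = 1.59e-06), and its paralogue Prps2 rose (0.13, adjusted p = 0.0124). Glycogen and phosphoglucomutase genes fell in 7 of 12 cases and rose in 1, with Pgm2 at 54.2 ± 1.94 CPM in the knockdown line and 74.9 ± 0.744 CPM in the scrambled line, 1.38-fold lower (adjusted p = 6.09e-10), and Pgm1 0.14 higher on the log2 scale (adjusted p = 0.0113). Among genes of pyruvate and lactate fates 9 of 19 fell and 7 rose. Me1, malic enzyme, fell (log2 fold change -0.16, adjusted p = 5.14e-06), and Ldhd, the D-lactate dehydrogenase, rose 1.95-fold to 11.5 ± 1.18 CPM in the knockdown line, against 5.91 ± 0.480 CPM in the scrambled line (adjusted p = 3.42e-08), on chromosome 8 like Pgls.

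Of the genes that control glycolysis at transcription 4 of 18 fell and 7 rose, where 24.1% of all tested genes fell and 23.8% rose. Egln3, an oxygen-sensing prolyl hydroxylase, measured 22.97, 23.5, 24.0 and 24.3 CPM in knockdown libraries, against 40.0, 50.3, 46.9 and 49.7 CPM in scrambled libraries. It was 1.97-fold lower (log2 fold change -0.98, SE 0.0621, adjusted p = 1.52e-11). The related gene Egln1, on chromosome 8, lay the other way, with every knockdown library above every scrambled library. Egln1 measured 96.7, 93.3, 96.6 and 94.7 CPM in knockdown libraries, against 72.9, 79.0, 79.1 and 79.5 CPM in scrambled libraries. Txnip, a sugar-responsive brake on glucose uptake, measured 70.4, 67.0, 66.3 and 66.8 CPM in knockdown libraries, against 52.5, 49.2, 52.5 and 50.3 CPM in scrambled libraries, 1.32-fold higher (adjusted p = 1.58e-08). For Hif1a, the HIF-1 alpha subunit, no difference was detected in its transcript (179 ± 6.19 CPM in the knockdown line, 184 ± 3.30 CPM in the scrambled line, adjusted p = 0.287). Myc averaged 214 ± 1.79 CPM in the knockdown line and 191 ± 18.7 CPM in the scrambled line (adjusted p = 0.00358), with overlapping groups because scrambled replicate 2 reached 219 CPM.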

How the data were processed

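Poly(A) RNA of the 8 libraries was sequenced as stranded pairs of 59 bases, per the labels' protocols. The table used here holds raw counts per gene as deposited by the authors; the submitters' processing notes name bcl2fastq 2.20, Bowtie, STAR, DESeq2 1.36.0, R 4.2.1 and mm10, while for the counting program, its annotation and its use of strand the entry is: not given in the sources used here. Genes were filtered with filterByExpr (minimum count 10, minimum total 15), scaled by TMM and tested with edgeR 4.0.16 (R 4.3.3) as knockdown against scrambled, with quasi-likelihood tests and Benjamini-Hochberg adjustment at 0.05 over 11797 genes. Levels are TMM-scaled CPM; lengths are merged exons of protein-coding GENCODE vM21 genes; copies are 59-base windows shared with other annotated transcripts; promoters and the miRNA are from RefSeq (GRCm38.p6). Floors cover counting error only. All members were named, and from each further list the called gene with the smallest adjusted p in each direction, plus Hif1a, Myc and Txnip. Pfkfb1, Eno1b, Eno3, Rpe and Egln1 were named beside related genes. The members and lists were chosen with earlier results of these data known. On simulated data over 11732 genes, 69.7, 86.2 and 95.5% of genes changed 1.2, 1.5 and 2-fold were recovered. The simulation changed 200 genes, far fewer than the 5645 called in the data, so these rates need not hold for the data. Replicate libraries of a line differed by more than sampling noise, scrambled replicate 2 the most. Alternatives were other scaling factors, other filters, DESeq2 1.42.0, limma 3.58.1 (voom), a stricter threshold, a replicate block and each library left out.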

Additional observations from a re-analysis of the deposited data

Results flagged for a closer look

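In each group of 4 libraries of each tested member, the gap between an extreme library and its nearest neighbour was divided by the range of the group. Of 66 such groups 2 exceeded Dixon's limit for groups of that size, and chance alone gives about 1 in 20. Pfkfb2 in scrambled replicate 2 was the highest of its group at 28.998 CPM, with the others at 27.3 to 27.4 CPM, a ratio of 0.964. Mpc2 in knockdown replicate 2 was the lowest of its group at 16.3 CPM, with the others at 17.5 to 17.7 CPM, a ratio of 0.882. Neither gene was called.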

How the results depend on the processing

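Over the planned settings 20 to 24 members were called lower and 2 higher, with 20 under library totals alone. The median log2 fold change of the tested members was -0.17 under library totals alone and -0.16 relative to chromosome medians, a setting chosen after seeing the data; both lie further from the value of -0.20 than the spread between libraries. Leaving out each library in turn gave 21 to 23 members lower, a median of -0.21 to -0.18, 5116 to 6004 genes called, and 42 to 48 genes of the further lists lower with 22 to 25 higher. Of 900 single-gene values under the alternatives 876 kept direction and side of the threshold, 24 lost the call and 0 turned round; the losses were in Pfkfb3, Slc16a3 and Pdha1, and at the threshold of 0.01 also Prps2 and Pgm1. The differences in isozyme shares kept their direction with other gene lengths and with each library left out, settings also chosen after seeing the data. Same-numbered libraries of the lines showed no detected shared deviation (correlations -0.0350 to 0.0201, against -0.0298 to 0.0334 for the other pairs). This cannot show that same-numbered libraries were handled apart. With a replicate block 5533 genes were called, with 23 members lower, 2 higher and a median of -0.20. In that setting 45 genes of the further lists were lower and 24 higher. The upper count of 24 came with no filter on low counts and includes Slc2a3. Levels near the floor, such as Eno2 and Ldhb, cannot show modest differences at this depth.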

Other observations

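The following lists of neighbouring pathways are read beside the background of all tested genes, of which 24.1% fell and 23.8% rose. Of the tricarboxylic acid cycle genes 11 of 18 fell and 0 rose at an adjusted p below 0.05 in edgeR; Ogdh, a subunit of 2-oxoglutarate dehydrogenase, averaged 226 ± 4.45 CPM in the knockdown line and 289.9 ± 15.2 CPM in the scrambled line (SD, n = 4 each), 1.28-fold lower (adjusted p = 2.52e-09). Of 6 tested hexosamine genes 2 fell, with Uap1, which makes UDP-N-acetylglucosamine, at a log2 fold change of -0.25 (adjusted p = 6.68e-07). Of 12 genes of fructose, galactose and sorbitol entry 5 fell and 2 rose, with the aldo-keto reductase Akr1b8 at -0.31 (adjusted p = 7.11e-09) and the aldose mutarotase Galm at 0.40 (adjusted p = 4.27e-05). Of 4 gluconeogenesis genes 1 fell and 1 rose: Pck2, the mitochondrial phosphoenolpyruvate carboxykinase, at -0.19 (adjusted p = 0.000109), and Fbp2, a fructose bisphosphatase, at 8.04 ± 0.870 CPM in the knockdown line and 4.03 ± 0.718 CPM in the scrambled line (SD, n = 4 each), 2.00-fold higher (adjusted p = 6.96e-07). Of 6 genes of the glycerol phosphate shuttle and side branches 2 fell and 2 rose, with Phgdh, the first enzyme of serine synthesis, at -0.23 (adjusted p = 1.13e-08) and Gpd1 at 0.30 (adjusted p = 6.73e-05).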
